A study of Mus musculus with 6 samples.

Results

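Integrins are the receptors by which cells hold on to the matrix around them, and laminins are among the matrix proteins they bind. The genes of both were taken from the deposited table by name, as protein-coding genes called Itga or Itgb with a number or letter, or Lama, Lamb or Lamc with a number. Described here are 36 of the 40166 genes, 26 integrin subunits and 10 laminin chains, and the rule itself uses only names. RNA had been sequenced from 6 subcutaneous YUMM3.3 tumors of C57BL/6 mice, of which 3 came from mice given water (vehicle) and 3 from mice given Rigosertib (RGS) at 300 mg/kg by oral gavage 5 days a week, all treated for 17 days. This is a single mouse melanoma cell line with mutant Braf, so the 6 tumors share that line, and RGS is a compound described as a RAS mimetic. Mice were 8 to 10 weeks old at inoculation, and the labels do not give the sex of these 6. The groups were compared to ask how RGS changed the tumors' gene expression. The labels do not say whether each library is 1 mouse, so the p-values measure the spread between these libraries.

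Each integrin on the cell surface is a pair of 1 alpha and 1 beta subunit. The alpha subunit largely sets what is bound, which may be laminin, collagen, proteins with an RGD motif such as fibronectin and osteopontin, or ligands on other cells. Laminins are trimers of 1 alpha, 1 beta and 1 gamma chain that assemble into the sheet of the basement membrane. In melanoma, integrins are known for their part in adhesion to the matrix, invasion and survival, and a transcript level does not give the amount of assembled receptor or trimer.

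The 3 vehicle libraries held 32555494, 26652104 and 22793087 counts (tumors 7, 8 and 9, by their sample numbers) and the 3 RGS libraries 21617368, 13837932 and 17768758 (tumors 10, 11 and 12), so every RGS library was shallower than every vehicle library. A count of 3 corresponded to 0.0922 to 0.217 CPM (counts per 1000000, here before the TMM factor), which covers counting error only. Vehicle tumor 7 stood apart for these genes. They took 0.604% of its counts against 0.463% and 0.391% in vehicle tumors 8 and 9 and 0.600% to 0.655% with RGS. Of the 29 members tested, 20 were highest in it among the vehicle tumors. That count was not made over all tested genes, so it does not show whether this was particular to the members. The labelled tissue was checked against marker lists. Of 8 melanocyte markers, Mlana, Tyr and Dct had no count in any tumor, and the summed level of the list was 11.1, 12.1 and 14.0 CPM with vehicle and 21.7 to 33.8 CPM with RGS. Most of that difference was Ngfr, a neural crest gene and the only one of the 8 that was called (6.50 and 18.8 CPM on average, adjusted p = 0.000479), while Mitf was not called and Sox10, Pmel and Tyrp1 were at or near 0. Ptprc, which encodes the leukocyte antigen CD45, and the T cell genes Cd3d, Cd3e and Cd3g also had no count in any tumor. These markers go against the label of a melanoma tumor that holds leukocytes, so the libraries are called tumors here by their label only.

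The filter on low counts (a median of at least 5 counts in at least 1 group) was passed by 29 members, 22 of them in both groups, 5 through the vehicle group alone and 2 through the RGS group alone. The groups were set against each other with the quasi-likelihood test of edgeR over all 15355 genes tested, and a gene was called at a Benjamini-Hochberg adjusted p below 0.05. RGS tumors had higher levels of 8 members, Itgb3, Itga2, Itga3, Itga5, Lamb1, Itga6, Lamb2 and Itgav, and lower levels of 3, Itga10, Itga4 and Itgb8. That is 27.6% of the members tested called higher and 10.3% called lower, where 16.3% and 16.5% of all tested genes were, or 32.8% in either direction. The CPM of the groups did not overlap for 13 of the 29 members (44.8%), close to the 45.8% of all tested genes, and all 11 called members were among the 13. The median log2 fold change was 0.32 over the members and -0.05 over all tested genes. Without scaling factors that median moved to -0.19, the share of higher calls among all called genes went from 49.7% to 37.2%, and the members split into 5 higher and 6 lower. Without vehicle tumor 7 the count was 12 higher and 1 lower, without vehicle tumor 8 it was 5 and 1, and without tumor 9, 10 or 12 it was 5 higher. Over all genes the main test called 2503 higher and 2533 lower. Without tumor 7 it called 2698 and 2551 of 15942 tested, and without tumor 8 it called 1776 and 1717 of 16088. Without tumor 9, 10 or 12 it called 1995, 2055 and 1950 genes higher, so the fall in higher calls was not limited to the members. In bulk RNA, fewer cells of a type and less RNA per cell cannot be told apart.

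**Figure D1:**
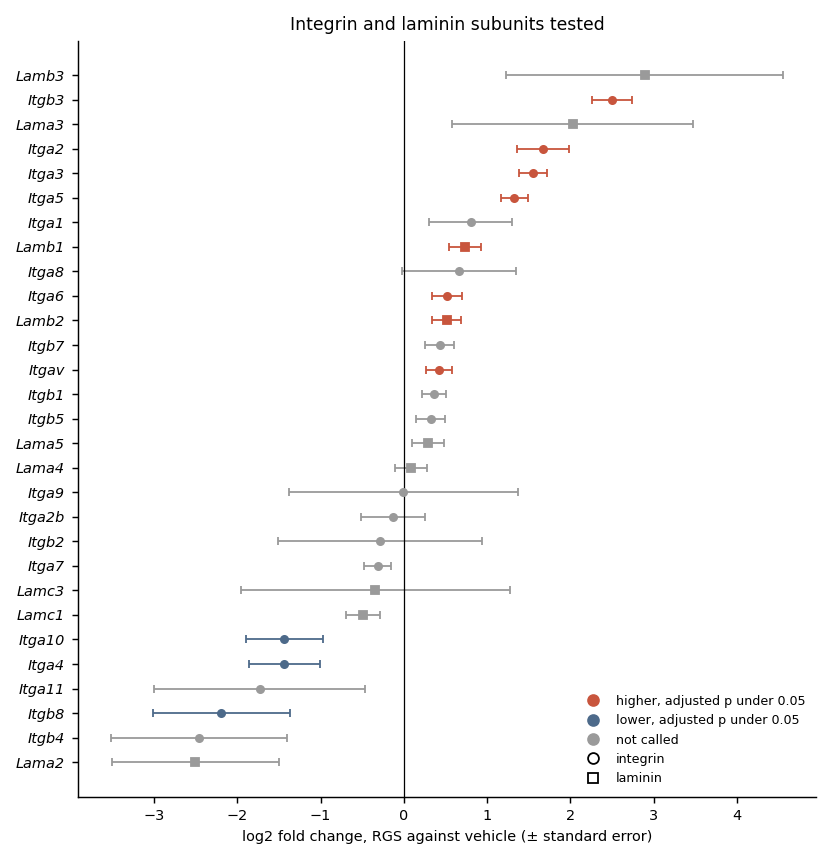
Log2 fold change of RGS against vehicle (horizontal axis) for the 29 members tested, from highest to lowest, with bars of 1 standard error from edgeR (3 tumors a group). Circles are integrins, squares laminins, and colour marks the 8 members called higher and the 3 called lower. Wide bars belong to members with few counts, such as Lamb3 and Lama3.

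Promoter sequence is shown for Itga3, Itga5 and Lamb1, the members called higher that had the highest levels per length, as the stretch just before each gene. RefSeq (GRCm38.p6) gave a window for 23 of the 36 members. Capitals mark GC boxes (GGGCGG on either strand), and each sequence reads 5′ to 3′ on the strand of its gene. The stretches are chr11:95076802-95076964 on the minus strand for Itga3, chr15:103366792-103367041 on the minus strand for Itga5 and chr12:31265043-31265233 on the plus strand for Lamb1, and none includes bases inside the annotated gene.
Itga3: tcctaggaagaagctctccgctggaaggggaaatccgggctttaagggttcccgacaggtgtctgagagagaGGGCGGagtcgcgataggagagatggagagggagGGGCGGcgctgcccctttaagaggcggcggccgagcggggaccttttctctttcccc
Itga5: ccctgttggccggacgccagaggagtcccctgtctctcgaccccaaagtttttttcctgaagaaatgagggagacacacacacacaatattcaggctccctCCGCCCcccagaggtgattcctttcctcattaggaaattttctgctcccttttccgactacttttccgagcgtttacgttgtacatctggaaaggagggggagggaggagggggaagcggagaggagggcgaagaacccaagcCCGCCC
Lamb1: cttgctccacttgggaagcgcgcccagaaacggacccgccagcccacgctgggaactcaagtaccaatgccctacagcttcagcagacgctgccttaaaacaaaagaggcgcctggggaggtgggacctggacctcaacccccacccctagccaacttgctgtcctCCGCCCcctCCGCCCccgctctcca
A GC box lay within 250 bases before the start in 8 of the 23 members, and in 3 of the 6 members called higher that had a window. It was present in 32.7% of 32851 such windows over all genes. An AP-1 motif (TGANTCA, either strand) was found in 1 of the 23 members and in 6.75% of all windows, and a TEAD motif (GGAATG, either strand) in 3 of the 23 and in 12.6% of all. None of the 6 members called higher held either of these motifs in its window.

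Among the alpha subunits that bind laminin, Itga3 rose with RGS by a wide margin, Itga6 rose slightly, and Itga7 was not called. Itga3 (ENSMUSG00000001507.16, chromosome 11, 95044474 to 95076801) was at 373, 258 and 254 CPM in vehicle tumors 7, 8 and 9 and at 860.1, 888 and 839 CPM in RGS tumors 10, 11 and 12. All RGS tumors lay above all vehicle tumors, with a fold change of 2.92 (log2 1.55 ± 0.17, SE, edgeR adjusted p = 1.41e-06). Itga6, whose product pairs with either Itgb1 or Itgb4, was at 198, 153 and 117 CPM with vehicle and 257, 211 and 203 CPM with RGS. Vehicle tumor 7 came close to the lowest RGS tumor, and the change was 1.43-fold (log2 0.52 ± 0.18, SE, edgeR adjusted p = 0.0366). This call was lost without any one of tumors 8, 9, 10, 11 and 12, with adjusted p between 0.0560 and 0.165, and without scaling factors (0.152). Itga7, a laminin receptor best known from muscle, was at 466, 372 and 327 CPM with vehicle and 334, 299 and 303 CPM with RGS. The groups overlapped, and its log2 fold change of -0.32 did not pass (adjusted p = 0.137), except without scaling factors, where it was -0.46 (0.0427). The 5 skeletal muscle markers summed to 6.33 to 10.6 CPM with vehicle and 3.99 to 8.19 CPM with RGS.

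Itga5 and Itgav encode alpha subunits that bind proteins with an RGD motif, and both rose. Itga5 (chromosome 15, 103344286 to 103366763), the fibronectin receptor subunit that pairs with Itgb1, was at 268, 211 and 186 CPM with vehicle and at 569, 546 and 553 CPM with RGS. The RGS tumors differed little from each other, and the lowest of them was above the highest vehicle tumor, at a fold change of 2.51 (log2 1.33 ± 0.16, SE, adjusted p = 4.94e-06). Itgav (chromosome 2, 83724397 to 83806916), which pairs with several beta subunits, was at 301, 224 and 236 CPM with vehicle and at 371, 340.2 and 308 CPM with RGS. Its lowest RGS tumor was only just above vehicle tumor 7, and the 1.34-fold change sat at the threshold (log2 0.42 ± 0.16, SE, adjusted p = 0.0487). It was lost without each of tumors 8, 9, 10, 11 and 12 (adjusted p 0.0673 to 0.210) and without scaling factors (0.216). The call was also lost, among others, with counts thinned to the smallest library. The other subunits of this kind were low. Itga2b, the alpha subunit of the platelet fibrinogen receptor, was at between 4.26 and 12.1 CPM with overlapping groups, and Itga8 lay between 1.36 and 5.06 CPM over the 6 tumors.

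The collagen-binding alpha subunits went different ways. Itga2 (chromosome 13, 114833081 to 114932100) was at 8.33, 4.52 and 13.2 CPM in the vehicle tumors and 29.3, 28.5 and 25.0 CPM in the RGS tumors. It rose 3.19-fold (log2 1.67 ± 0.31, SE, adjusted p = 0.000414), while vehicle tumor 9 was well above the other vehicle tumors. Itga1, the gene 20995 bases away on the same chromosome, ranged from 2.06 to 8.68 CPM with overlapping groups and was not called (log2 0.80 ± 0.50, SE, adjusted p = 0.236). Itga10 (chromosome 3, 96645584 to 96664519), known from cartilage, was at 7.36, 5.98 and 6.66 CPM with vehicle and 1.85, 2.56 and 3.00 CPM with RGS. The groups did not overlap and the level was 2.71-fold lower (log2 -1.44 ± 0.46, SE, adjusted p = 0.0221). The call was lost without vehicle tumor 7, 8 or 9 (adjusted p = 0.0707, 0.0693 and 0.0558) and with counts thinned to the smallest library (0.0750). Of its exonic bases, 1739 are shared with Gm42957 on the same strand, which had 0 to 29 counts. Itga11 was at most 2.43 CPM in any tumor and was not called.

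The remaining alpha subunits are best known from leukocytes, apart from Itga9, which had 0 to 8 counts. Itga4 (chromosome 2, 79255426 to 79333123), whose product binds Vcam1 and fibronectin and pairs with Itgb1 or Itgb7, was at 14.6, 13.4 and 9.84 CPM with vehicle and 1.70, 6.85 and 5.56 CPM with RGS. All RGS tumors were below all vehicle tumors, and the level fell 2.71-fold (log2 -1.44 ± 0.42, SE, adjusted p = 0.0140). Itgal, Itgax and Itgad had no count in any tumor, Itgam had 4 counts in RGS tumor 12 and none elsewhere, and Itgae had 0 to 42 counts. None of these 5 genes was tested.

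**Figure D2:**
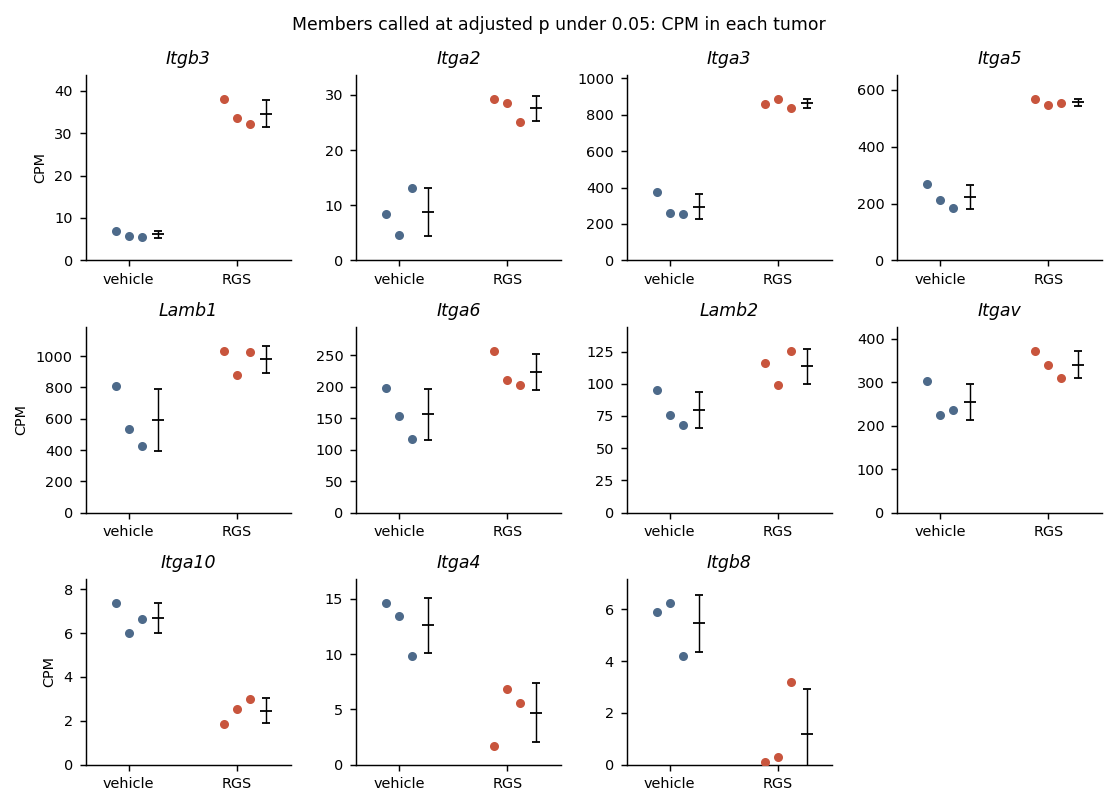
CPM (vertical axis, from 0, with a scale of its own in each panel) of the 11 called members in each of the 3 vehicle (blue) and 3 RGS (red) tumors, left to right by tumor number. The black line and bar beside each group are its mean ± SD. No group overlaps the other, and in Itgb8 1 RGS tumor, at 3.18 CPM, lies far above the other RGS tumors.

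Among the beta subunits Itgb3 had the largest called change. Itgb3 (ENSMUSG00000020689.4, chromosome 11, 104608000 to 104670476) encodes the partner of both Itgav and Itga2b. It was at 6.96, 5.84 and 5.54 CPM with vehicle and at 38.1, 33.5 and 32.2 CPM with RGS. The 2 groups were far apart relative to the spread within each, and the level rose 5.65-fold (log2 2.50 ± 0.24, SE, adjusted p = 2.84e-07). The platelet markers Pf4 and Gp9 had no count in any tumor, and the 5 platelet markers in the file summed to 0.178 to 0.817 CPM with vehicle and 0.226 to 0.428 CPM with RGS.

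Itgb1, the common partner of most alpha subunits above, was at 1337, 1383 and 1219 CPM with vehicle and 1736, 1563 and 1762 CPM with RGS. The groups did not overlap, yet the log2 fold change of 0.36 ± 0.14 (SE) did not pass (adjusted p = 0.0608). It passed with DESeq2 (0.0127) and without vehicle tumor 7 (0.0113), among others. Itgb5, another partner of Itgav, ranged from 108 to 179 CPM with overlapping groups (log2 0.32, adjusted p = 0.171), and it passed without vehicle tumor 7 (log2 0.54, adjusted p = 0.00393). Itgb8 (chromosome 12, 119158022 to 119238802), whose product with Itgav is known for activating latent TGF-beta, was at 5.91, 6.23 and 4.21 CPM with vehicle and 0.0946, 0.301 and 3.18 CPM with RGS. RGS tumors 10 and 11 held 2 and 4 counts while tumor 12 held 52, so the 4.57-fold lower level (log2 -2.19 ± 0.83, SE, adjusted p = 0.0490) rests on unequal tumors. Itgb8 is also 1 of the 5 members that passed the filter through the vehicle group alone, where it is high, so the call is weak support for a difference. It held with no filter (adjusted p = 0.00641) but not with filterByExpr (0.0591) or a median of at least 20 counts (0.0558). It was lost without vehicle tumor 7 or 8 or RGS tumor 10 or 11 (adjusted p 0.0854 to 0.120) and with counts thinned to the smallest library. Without RGS tumor 12 the log2 fold change was -4.88. Itgb4, the partner of Itga6 in the hemidesmosomes of epithelia, lay between 0.688 and 3.68 CPM with vehicle and between 0.151 and 0.710 CPM with RGS and was not called (adjusted p = 0.0809). It too passed the filter through the vehicle group alone, and so the call that DESeq2 made (0.0368) lends little support. Itgb6, an epithelial subunit, had 0 to 5 counts and was not tested.

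Itgb7 was abundant although its partners were scarce. Its product is known from lymphocytes, where it pairs with Itga4 or Itgae. It was at 201, 173 and 139.6 CPM with vehicle and at 199, 210.0 and 285 CPM with RGS, with overlapping groups and no call (log2 0.43 ± 0.18, SE, adjusted p = 0.0690). Without vehicle tumor 7 it was called (log2 0.56, adjusted p = 0.00734). Per length, Itgb7 had 61.9 ± 11.1 RPKM (CPM divided by the length of the gene in kilobases, mean ± SD, n = 3) with vehicle and 83.5 ± 16.8 RPKM with RGS, while Itga4 had 0.903 and 0.337 RPKM. The ratio of Itgb7 to Itga4 and Itgae together was 68.3, 48.7 and 69.7 in the vehicle tumors and 292, 149.6 and 258 in the RGS tumors, without overlap (exact permutation test, two-sided, p = 0.1, the smallest that 3 against 3 allows). This ratio was formed after the values were seen. Its denominator was on average mostly Itga4, already called lower, so it adds no separate support. Itgb2, the beta subunit shared by Itgal, Itgam, Itgax and Itgad, had 20 to 46 counts with vehicle and 1, 37 and 2 counts with RGS and was not called.

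Leukocyte markers moved unevenly beside these genes. Of the 5 pan-leukocyte markers, 2 were called higher, Laptm5 (176 and 900.1 CPM on average) and Cd53 (31.1 and 82.2 CPM), and their list summed to 188 to 248 CPM with vehicle and 920.1 to 1028 CPM with RGS. Ptprc was at 0 throughout, Ptpn6 was not called (0.804 and 0.423 CPM on average) and Coro1a was not tested (0.0571 and 0.574 CPM). The higher sum thus came almost wholly from Laptm5 and Cd53. The macrophage list was at 65.1 to 71.0 CPM and 83.0 to 106 CPM, with Adgre1, C1qc and Fcgr1 at 0. Nearly all of it was Cd68, which was not called (62.5 and 74.0 CPM on average), and Cd14, which was called higher (6.13 and 19.4 CPM, log2 1.66, adjusted p = 0.000136). The T and NK cell list reached at most 0.602 CPM with vehicle and 1.42 CPM with RGS, with 5 of its 8 genes at 0. Trac, the only one tested, was called higher, with no count in the vehicle tumors and 1.42, 1.20 and 0.611 CPM with RGS (adjusted p = 0.00592). It passed the filter on low counts through the RGS group alone, where it is high, so the call lends little support.

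**Figure D3:**
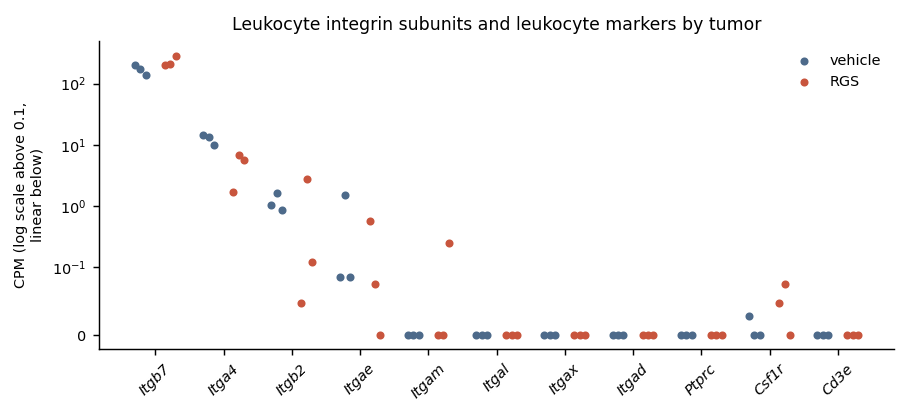
CPM (vertical axis, log scale above 0.1 and linear below) of the integrin subunits known from leukocytes and of the markers Ptprc, Csf1r and Cd3e, with 1 point for each vehicle (blue) and RGS (red) tumor. Itgb7 lies between 139.6 and 285 CPM in every tumor, while Ptprc, Cd3e, Itgal, Itgax and Itgad lie at 0.

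Of the laminin chains, both abundant beta chains rose, and no alpha chain was called. Lamb1 (ENSMUSG00000002900.16, chromosome 12, 31265234 to 31329644), the beta chain of many basement membranes, was at 811, 533 and 427 CPM with vehicle and at 1034, 878 and 1027 CPM with RGS. Vehicle tumor 7 was much nearer to the RGS tumors than the other vehicle tumors were, and the change was 1.66-fold (log2 0.73 ± 0.19, SE, adjusted p = 0.00691). Lamb2 (chromosome 9, 108479736 to 108490530), the beta chain known from muscle and kidney, was at 94.9, 75.4 and 68.3 CPM with vehicle and 116, 99.1 and 125 CPM with RGS. It rose 1.43-fold (log2 0.51 ± 0.17, SE, adjusted p = 0.0276), a call lost without vehicle tumor 8 or 9 or RGS tumor 10 or 12 (adjusted p 0.0780 to 0.126) and without scaling factors (0.127).

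Lama3 and Lamb3, an alpha and a beta chain known from epithelia, were near the limit of counting in both groups, with 1 to 31 counts of Lama3 and 0 to 14 counts of Lamb3 in a tumor. Neither was called. Of 10 keratinocyte and epithelial markers only 1 had enough counts to be tested, and it was not called (summed level of the list 0.884 to 1.72 CPM with vehicle and 1.41 to 3.55 CPM with RGS, with Krt1, Trp63 and Dsg3 at 0). Lamc1, the gamma chain of most laminins, was at 559, 343 and 280.4 CPM with vehicle and 316, 252 and 275 CPM with RGS. The groups overlapped and the log2 fold change of -0.49 ± 0.20 (SE) did not pass (adjusted p = 0.0730), but it did without vehicle tumor 9 (log2 -0.68, adjusted p = 0.00350), without scaling factors (0.0277) and without the filter on low counts (0.0194). Without vehicle tumor 7 the log2 fold change was -0.15 (adjusted p = 0.431). Lamc3 had 0 to 17 counts.

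Lama5, the alpha chain of most epithelial and vascular basement membranes, was at 622, 386 and 332 CPM with vehicle and 536, 596 and 510.3 CPM with RGS (log2 0.29, adjusted p = 0.262). Vehicle tumor 7 was the highest of all 6, and without it the log2 fold change was 0.61 (adjusted p = 0.000486). Lama4, a mesenchymal and endothelial chain, spread from 76.2 to 139 CPM with vehicle and from 109 to 110.1 CPM with RGS, and its log2 fold change of 0.09 turned to -0.06 without scaling factors. Lama2, the chain of muscle basement membrane, was at 2.48, 3.42 and 3.01 CPM with vehicle and 0.379, 0 and 1.16 CPM with RGS. Its groups did not overlap, yet it was not called (adjusted p = 0.0615), while DESeq2 called it (0.0201), as did the main test without RGS tumor 12 (0.0140). Lama1 had no count in any tumor. Some markers of mesenchymal cells moved as well, in both directions. Of 7 fibroblast markers 4 were called lower (Pdgfra, Pdgfrb, Col1a2 and Col3a1) and 1 higher (Dcn), the list summing to 404 to 601 CPM with vehicle and 294 to 320 CPM with RGS. Of 6 pericyte and smooth muscle markers 2 were called higher and 2 lower (166 to 232 CPM and 442 to 503 CPM). Beside these counts, 16.3% of all tested genes were called higher and 16.5% lower. The higher sum came from Rgs5 alone (1.30 and 401 CPM on average), while Acta2 (88.3 and 18.2 CPM) and Cspg4 (104 and 57.3 CPM) were called lower. Des, the other one called higher, had no count with vehicle and 1.14, 0.376 and 0.306 CPM with RGS. It passed the filter on low counts through the RGS group alone, where it is high, so the call lends little support. Lum had no count in any tumor, and Myh11 and Tagln were not tested. The part of these markers in the laminin and integrin levels was not tested.

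Levels per length show which subunits made up each class. RPKM of the alpha integrins summed to 191 ± 36.9 (SD, n = 3) with vehicle and 366 ± 11.1 with RGS. With vehicle Itga3, Itga7 and Itga5 stood close together, at 51.7 ± 11.9, 48.0 ± 8.75 and 44.9 ± 8.52 RPKM, differences smaller than their SDs, and above Itgav (23.6 ± 3.86 RPKM) and Itga6 (17.3 ± 4.50 RPKM). With RGS the order was Itga3 (151 ± 4.26 RPKM), Itga5 (113 ± 2.32 RPKM), Itga7 (38.6 ± 2.41 RPKM), Itgav (31.6 ± 2.93 RPKM) and Itga6 (24.8 ± 3.21 RPKM), and each step exceeded the SDs of its neighbours. As a share of the alpha class, Itga3 held 26.9% ± 1.36 with vehicle and 41.3% ± 1.25 with RGS, Itga5 23.5% ± 0.554 and 30.8% ± 0.721, and Itga7 25.1% ± 0.657 and 10.5% ± 0.442. The shares of Itgav (12.4% and 8.64%) and Itga6 (8.97% and 6.76%) were lower with RGS in every tumor although the CPM of both genes rose.

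In the beta class the shares of the abundant subunits overlapped between the groups. Itgb1 held 72.5% to 78.3% of the RPKM with vehicle and 73.1% to 77.1% with RGS, Itgb7 14.5% and 15.1%, and Itgb5 8.95% and 8.68% on average. Itgb3 went from 0.244% ± 0.0178 to 1.07% ± 0.128 without overlap and remained a small part. In the laminins, Lama5 held 81.7% and 84.0% of the alpha class and Lamb1 81.5% and 84.1% of the beta class. An exact permutation test of any such share cannot give less than p = 0.1 with 3 tumors a group.

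**Figure D4:**
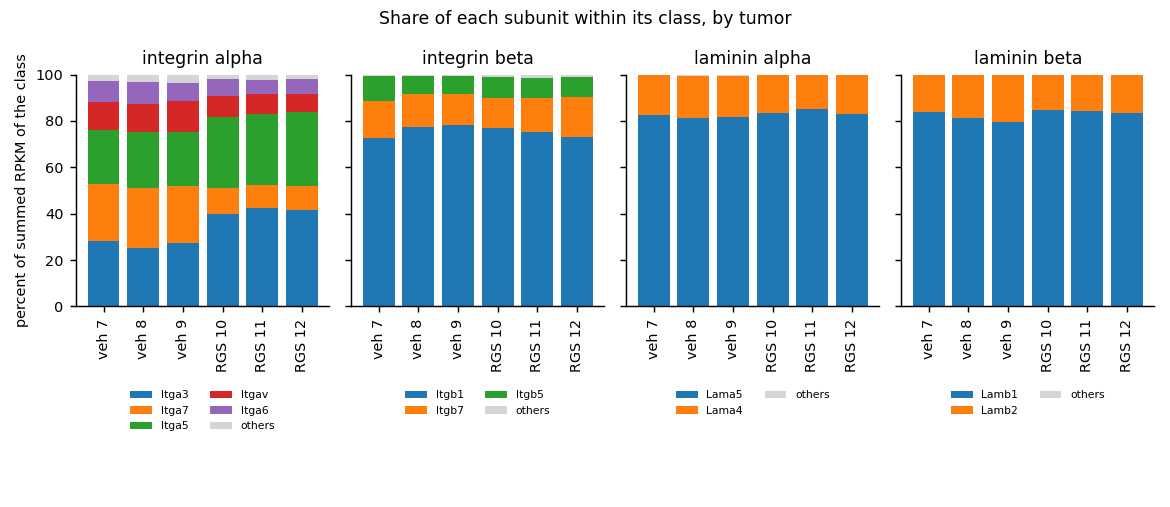
Percent of the summed RPKM of each class (vertical axis) held by each subunit, 1 bar per tumor (veh is vehicle). Subunits under 3% in both groups are pooled as others. Blue Itga3 and green Itga5 take more, and orange Itga7 less, of the alpha bar in all RGS tumors, while the integrin beta bars look alike.

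Ratios of 2 subunits in the same tumor do not depend on the scaling of libraries. They were formed after the values were seen, within the alpha integrins, the beta integrins and the laminins, for the 14 members with at least 5 RPKM on average in a group, with the member that was relatively higher with RGS on top. Of 26 such ratios 20 did not overlap between the groups, 9 of 10 for alpha integrins, 3 of 6 for beta integrins and 8 of 10 for laminins. Among all pairs of the 7407 tested genes with at least 5 RPKM, 58.6% did not overlap, and the 26 ratios share 14 genes, so their count is a description and nothing particular to the members is read from it. Each of these 20 had the smallest exact permutation p, 0.1 (two-sided, 0.130 after Benjamini-Hochberg adjustment over the 26). In several of them vehicle tumor 7, often the highest of its group in CPM, lay close to the other vehicle tumors.

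The ratio of Itga5 to Itga7 was 0.942, 0.931 and 0.930 in the vehicle tumors and 2.79, 3.00 and 3.00 in the RGS tumors, so the fibronectin receptor subunit went from just below the laminin receptor subunit to well above it. Itga3 over Itga7 was 1.13, 0.981 and 1.10 with vehicle and 3.64, 4.21 and 3.93 with RGS. Itgb3 over Itgb1 was 0.00360, 0.00292 and 0.00315 with vehicle and 0.0152, 0.0148 and 0.0126 with RGS. All of these lay well apart between groups. Itgav over its partner Itgb3, taken separately after the values were seen, was 22.8 ± 1.46 with vehicle and 5.40 ± 0.164 with RGS. Itgav thus stayed the more abundant of the pair. In contrast, Itgb1 over Itgb5 was 8.71 ± 1.77 and 8.65 ± 0.150 and overlapped.

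Among laminin chains, Lamb1 over Lamc1 was 1.21, 1.29 and 1.27 with vehicle and 2.73, 2.91 and 3.12 with RGS. The vehicle tumors, whose Lamb1 CPM had spread from 427 to 811, thus had nearly the same ratio. Lama5 over Lamc1 was 0.807, 0.817 and 0.860 with vehicle and 1.23, 1.72 and 1.35 with RGS. Both ratios were apart between the groups, and so was Lamb1 over Lama5, at 1.52 ± 0.0567 with vehicle and 2.07 ± 0.334 with RGS. The beta chains summed to 72.6 ± 22.2 RPKM with vehicle and 117.5 ± 10.9 RPKM with RGS.

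**Figure D5:**
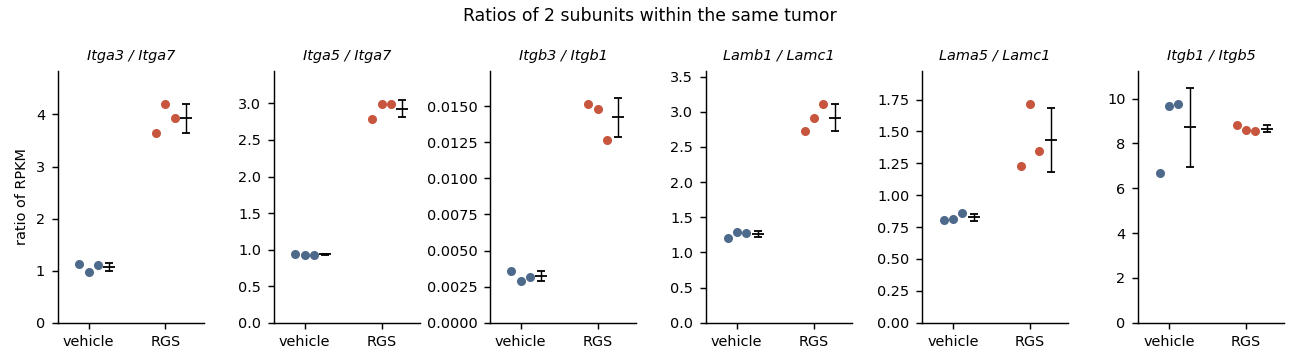
Ratio of the RPKM of 2 subunits within a tumor (vertical axis, from 0, with a scale of its own in each panel) for vehicle (blue) and RGS (red) tumors, left to right by tumor number, with mean ± SD (black). The first 5 ratios do not overlap between groups, and Itgb1 over Itgb5 does.

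Genes that act with these receptors were followed in 3 lists. Over all tested genes 16.3% were called higher and 16.5% lower, with a median log2 fold change of -0.05. The counts in each list are descriptions beside these shares, and no test of a list was run. In the list of focal adhesion and integrin activation, 16 of 39 tested genes were called higher and 8 lower, with a median log2 fold change of 0.25. Tns4, a tensin that binds the tails of beta subunits, rose from 1.75 ± 0.114 to 35.0 ± 4.18 CPM (SD, n = 3, log2 4.32, adjusted p = 1.28e-09). Pdlim7 (log2 1.80) and Zyx (log2 1.21), LIM proteins of actin attachment, rose too, as did Tln1 (log2 0.91), the talin that activates integrins. The adaptor pairs were split between paralogs. Lims2 rose (log2 2.28) and Lims1 fell (log2 -1.29), and Parvb rose (log2 0.67) and Parva fell (log2 -1.06), while Ilk, the kinase-like protein that both families bind, was not called (log2 -0.46, adjusted p = 0.276). Itgb1bp1, a negative regulator of Itgb1, fell (log2 -1.44), and Vcl, which encodes vinculin, fell with overlapping groups (log2 -1.09). Tln1 and the Parvb and Ilk values were picked after they were seen.

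In the list of basement membrane and laminin partners, 7 of 28 tested genes were called higher and 7 lower (median log2 fold change 0.24). Over all tested genes the shares were again 16.3% and 16.5%. The list had 11 higher without vehicle tumor 7 and 4 without RGS tumor 11, where 2698 of 15942 and 2004 of 16136 tested genes were called higher. Smoc2, a matricellular protein, rose from 69.8 ± 6.73 to 776 ± 96.9 CPM (log2 3.47, adjusted p = 3.46e-11). Col7a1, the anchoring fibril collagen, rose (log2 2.01), as did Npnt, a ligand of Itga8 (log2 1.51). Col17a1 (log2 5.17) was called higher from 0.0237 to 1.04 CPM with overlapping groups. It had no count in vehicle tumors 7 and 9 and was at 0.0611 CPM in RGS tumor 12. It passed the filter on low counts through the RGS group alone, so this call, counted among the 7 higher, lends little support. Col15a1 (log2 -3.48), Col4a5 (log2 -1.27), the netrin Ntn4 (log2 -1.24) and Nid2 (log2 -1.11) fell. Agrn, which encodes agrin, a laminin-binding proteoglycan, also fell (log2 -0.59), while Nid1, the linker of laminin and collagen IV that binds the Lamc1 chain, and the perlecan gene Hspg2 were not called (log2 0.27 and 0.18). These 3 were picked after their values were seen.

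Of the integrin ligands outside the laminins, 12 of 32 tested genes were called higher and 8 lower (median log2 fold change 0.37). Beside this, 16.3% of all tested genes were called higher and 16.5% lower. Icam2, below the minimum of 1 CPM for named genes, is counted among the 8 lower. It was at 0.514, 0.321 and 1.03 CPM with vehicle and had no count with RGS. It passed the filter on low counts through the vehicle group alone, where it is high, so that call lends little support. The list had 6 lower with no filter on low counts and 7 with filterByExpr. Spp1, which encodes osteopontin, a ligand of Itgav with Itgb3, rose from 4053 ± 358 to 17727 ± 1842 CPM (log2 2.13, adjusted p = 6.38e-09). Thbs2, a thrombospondin, rose from 729 ± 109 to 3752 ± 200.1 CPM (log2 2.36), and Jam2 (log2 1.57) and Lrrc32, a carrier of latent TGF-beta (log2 1.47), rose as well. Fn1, which encodes fibronectin, rose from 2787 ± 995 to 5899 ± 747 CPM (log2 1.08, adjusted p = 0.000380) and was picked after its values were seen. Vcam1, the ligand of Itga4, fell from 318 ± 22.4 to 59.3 ± 2.34 CPM (log2 -2.42, adjusted p = 1.63e-09), as did Nov (log2 -2.15), Edil3 (log2 -1.84) and Fbln5 (log2 -1.47). Itga4 and Vcam1 were thus both lower with RGS, but Fn1, whose product Itga4 also binds, was higher. Itgb3 and Spp1 were both higher, but Edil3, Nov and Fbln5 of the same list were lower. Whether receptors and ligands moved together was not tested. Vtn, which encodes vitronectin, and Madcam1, the ligand of Itga4 with Itgb7, had no count in any tumor.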

How the data were processed

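The deposited table holds unnormalized read counts of each gene, with 1 column per tumor, beside the gene's position and length. Reads of 150 bases, sequenced in pairs, were aligned with STAR. The submitters' processing notes name cutadapt 1.18, FastQC 0.11.7, STAR 2.7.1a, featureCounts 1.6.4 and the build mm10, without further roles. The use of strand and of reads that match several genes is not given in the sources used here. All 36 members have the same start and end in GENCODE M21. From the deposited counts, genes with a median of at least 5 counts in a group were tested in R 4.3.3 with edgeR 4.0.16 (TMM factors of 0.920 to 1.08, quasi-likelihood F test, dispersions without the robust option), over 15355 genes. Standard errors were derived from the F statistics (the size of the log2 fold change over the root of F). CPM (counts per 1000000) used the TMM-scaled library, and RPKM also the length in the file. On simulated data with these library sizes and 15355 genes, the test found, for this comparison, 48% of the genes given a 2-fold change and 70% of those given a 4-fold change, with 4.84% false calls. Far fewer genes were changed in the simulation than were called in the data, so these rates need not hold for the tumors. Same-group libraries differed by more than counting noise (chi-square per degree of freedom at least 19.7), so none was counted as a duplicate. Such a difference cannot show whether the libraries came from separate mice.

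The members, the 3 pathway lists, the marker lists and the tests were chosen with earlier results of these data known. One item is not reported here. Each of the 36 members is given. Called members with a mean of at least 1 CPM in a group are given with all 6 values, and from each pathway list up to 4 called genes per direction, by size of change, with the same minimum. Genes named outside these choices are marked in the text. Of 44 ligand symbols 39 matched, since 4 were second symbols of listed genes and Icam4 had no match. The dendritic cell list summed to 5.85 to 8.90 CPM with vehicle and 8.28 to 14.5 CPM with RGS, the neutrophil list to 0.114 to 0.516 and 0.473 to 0.673 CPM, and the endothelial list to 0.945 to 1.20 and 3.46 to 11.3 CPM. The higher dendritic sum came mostly from Flt3 (0.228 and 7.90 CPM on average), while Zbtb46 was lower without a call (7.05 and 3.20 CPM). The higher endothelial sum came mostly from Cdh5 (0.555 and 6.20 CPM), with Emcn and Erg at 0. Alternatives were DESeq2 1.42.0 (which the study names), limma 3.58.1 with voom, robust dispersions, RLE and upper-quartile factors, no scaling factors, 3 further low-count filters, thinned counts, mitochondrial and ribosomal protein genes left out, stricter thresholds and each tumor left out. RefSeq promoter windows were searched for 3 motifs.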

Additional observations from a re-analysis of the deposited data

How the results depend on the processing

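No paired analysis was possible because the vehicle tumors are numbered 7 to 9 and the RGS tumors 10 to 12, so the groups share no replicate number. Of the 11 called members, 6 (Itga2, Itga3, Itga4, Itga5, Itgb3 and Lamb1) kept their direction and call under each of the 17 alternatives fitted, and 5 (Itga6, Itga10, Itgav, Itgb8 and Lamb2) lost the call under at least 1. Another 8 were called only under an alternative (Itga7, Itgb1, Itgb4, Itgb5, Itgb7, Lama2, Lama5 and Lamc1), and no called member changed sign. The sign of Itga2b, Itga9, Itgb2, Lama4 and Lamc3, none of them called, changed under at least 1. The stricter thresholds are not among these 17. Of the 6 kept, Itga4 did not pass an adjusted p under 0.01 (0.0140 with edgeR). Lamb1 did not reach a log2 fold change of 1 (0.73). From 8 members called higher and 3 lower, library size only gave 5 and 6, an adjusted p under 0.01 gave 5 and 0 with edgeR, and thinning to the smallest library left 1 lower. DESeq2 and the fit with no filter on low counts each called 5 lower. Requiring also a log2 fold change of 1 or more in size left 4 higher. With 1 tumor left out, members called higher ranged from 5 (without tumor 8, 9, 10 or 12) to 12 (without tumor 7) and members called lower from 1 (without tumor 7 or 8) to 4 (without tumor 12). In the same fits, higher calls over all genes ranged from 1776 (without tumor 8) to 2698 (without tumor 7). Lower calls over all genes ranged from 1717 (without tumor 8) to 2551 (without tumor 7). Over all genes, the 2503 higher and 2533 lower calls became 1607 and 1562 at an adjusted p under 0.01, and 1168 and 1450 with the fold threshold. Basement membrane genes called higher ranged from 4 (without tumor 11) to 11 (without tumor 7) and numbered 4 at an adjusted p under 0.01. With the fold threshold, 4 basement membrane genes were lower, and 7 focal adhesion genes were higher and 4 lower. For the fits without a tumor the cause was not tested. Shares and ratios within a tumor do not depend on scaling factors. Depth limits more than the members under about 3 counts. Thinning to the smallest library took away the calls of Itgb8, of Itga10, with at least 34 counts in every tumor, and of Itgav, with at least 4518. With 3 tumors a group no exact test of a single value can go below 0.1.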

Other observations

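Some members lie beside each other in the genome and are described here as values. Itga2 and Itga1 lie 20995 bases apart on chromosome 13, and their log2 fold changes were 1.67 and 0.80. Itgam, Itgax and Itgad follow each other on chromosome 7, with gaps of 11.1 kb and 3.72 kb, and of these only Itgam had any count, 4 in a single tumor. Besides Itga10, exonic bases of 2 called members overlap a gene on the opposite strand, 1124 bases of Itga4 with Cerkl (0 to 2 counts) and 634 bases of Itgav with Gm13684 (2 to 33 counts).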
